A study of Mus musculus with 32 samples.

Results

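The 4 genes Cd163, Hmox1, Slc11a1 and Slc40a1 have roles in the recycling of iron and heme. The open chromatin around them was compared between endothelial cells of the liver and its resident macrophages, the Kupffer cells. The members are all ATAC-seq peaks whose centres lie in a fixed window around each gene, 134 of the 229137 peaks in the endothelial and Kupffer lists together. ATAC-seq maps accessible DNA through the cuts of a transposase. The windows, on the mouse build mm9, are chr6:124220000-124310000 for Cd163, chr8:77580000-77660000 for Hmox1, chr1:74390000-74460000 for Slc11a1 and chr1:45930000-46020000 for Slc40a1. Peaks of both cell types that had 1 bp or more in common count as shared. All others are restricted, that is endothelial-only or Kupffer-only.

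The study asked how the clock of hepatocytes acts on other liver cells. Its 32 ATAC-seq libraries came from male C57BL/6J mice on normal chow, either wild type (WT) or with a double knockout of REV-ERB a/b in adult hepatocytes, taken at ZT10 or ZT22, zeitgeber times in hours from lights on. Endothelial cells and Kupffer cells were each profiled in 4 replicates per genotype and time, 16 libraries per cell type. The knockout is described as one of hepatocytes, not of the cells profiled here, and neither the way it was made nor the isolation of the cells is given in the sources used here. The deposited files hold 1 list of peak positions per cell type, with no height, score or library of origin. Genotype and time therefore could not be compared, no value below has a replicate, and read depth is unknown. Absence from a list means that no peak was called, which does not show that the site was closed. Cell identity could not be checked against marker genes, because no annotation of mm9 was at hand.

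Kupffer cells engulf worn-out erythrocytes. CD163 is a macrophage scavenger receptor for haemoglobin. Heme oxygenase-1, the product of Hmox1, opens the heme ring and releases iron, biliverdin and carbon monoxide, and is inducible in many cell types, endothelium included. NRAMP1, encoded by Slc11a1, moves divalent metals across the membrane of phagosomes in macrophages and neutrophils, and ferroportin, encoded by Slc40a1, is the iron exporter through which recycled iron returns to plasma. REV-ERBs are themselves heme-binding repressors.

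Of the 4 genes, 2 were matched in a RefSeq promoter table on GRCm38.p6, and the 250 bases upstream of their starts are shown. Their loci also had the highest (Cd163) and the lowest (Slc11a1) number of Kupffer peaks per endothelial peak. The coordinates of the promoters belong to another build than the peaks, so no peak was placed on them. Capitals mark matches to the motifs searched.
Cd163 promoter, GRCm38.p6 chr6:124304401-124304650, plus strand: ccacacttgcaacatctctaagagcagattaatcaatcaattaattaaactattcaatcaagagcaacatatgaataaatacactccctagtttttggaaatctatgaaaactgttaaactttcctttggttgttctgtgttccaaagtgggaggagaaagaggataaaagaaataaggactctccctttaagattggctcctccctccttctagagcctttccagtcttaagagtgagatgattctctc
Slc11a1 promoter, GRCm38.p6 chr1:74374953-74375202, plus strand: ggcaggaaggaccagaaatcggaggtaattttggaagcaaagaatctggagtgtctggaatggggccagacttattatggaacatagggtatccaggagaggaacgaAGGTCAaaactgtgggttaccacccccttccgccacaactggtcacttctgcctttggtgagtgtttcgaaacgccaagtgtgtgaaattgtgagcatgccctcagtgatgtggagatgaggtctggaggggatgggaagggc

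Both strands were searched for TGACNNNGC (the core of the antioxidant response element), TGANTCA (AP-1), GAGGAAGT (PU.1), CACGTG (E-box) and AGGTCA (the half-site bound by nuclear receptors such as REV-ERB and ROR). The letters TGAC are common to TGACNNNGC, to some forms of TGANTCA and to the reverse complement of AGGTCA, so matches to these can overlap. The Slc11a1 promoter held 1 match, AGGTCA on the plus strand at positions -143 to -138 from the start, and this motif occurs in 14% of the 32851 promoters in the table over the same length. The Cd163 promoter held no match to any of the 5 motifs, which says only that these letters are not in this stretch. The other motifs occurred in 10.2% (TGACNNNGC), 6.75% (TGANTCA), 2.44% (GAGGAAGT) and 6.02% (CACGTG) of promoters. The promoters differed in composition, with 36.8% G and C in Cd163 and 51.2% in Slc11a1, beside a median of 52.4% over the table.

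Kupffer cells had more peaks than endothelial cells in each of the 4 windows, but by very different margins. The windows held 91 Kupffer and 43 endothelial peaks, 2.12 Kupffer peaks per endothelial peak, beside 1.51 over the whole lists. The ratio was 18 at Cd163 (18 against 1), 2.54 at Slc40a1 (33 against 13), 1.57 at Hmox1 (22 against 14) and 1.2 at Slc11a1 (18 against 15). The excess therefore sat at Cd163 and Slc40a1, while Hmox1 was near the ratio of the lists and Slc11a1 below it. Overlapping peaks joined, the windows held 104 distinct sites, of which 29 were shared, 61 Kupffer-only and 14 endothelial-only. Kupffer-only peaks were also the more numerous over the whole lists, with 83884 beside 38129 endothelial-only peaks. Joined sites were not counted over the whole lists.

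**Figure D1:**
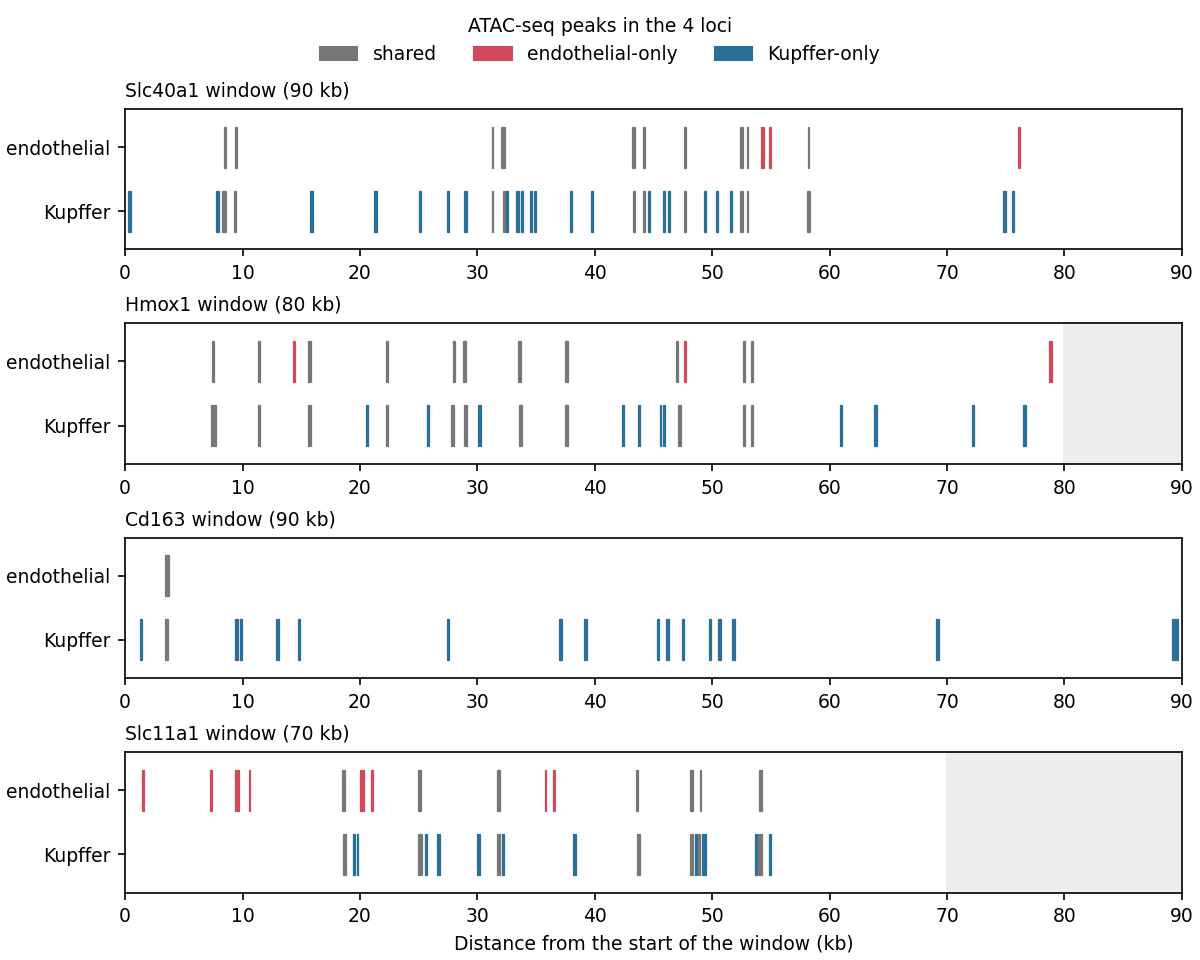
Positions of all peaks in the 4 windows, in kb from the start of each window, with endothelial peaks in the upper and Kupffer peaks in the lower row of each panel; bars are drawn to the width of the peak with a thin outline, and grey shading lies beyond the window. The Cd163 panel has 1 endothelial peak at its left end and 18 Kupffer peaks, whereas the first 4 endothelial peaks of the Slc11a1 panel have no Kupffer peak below them.

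**Figure D2:**
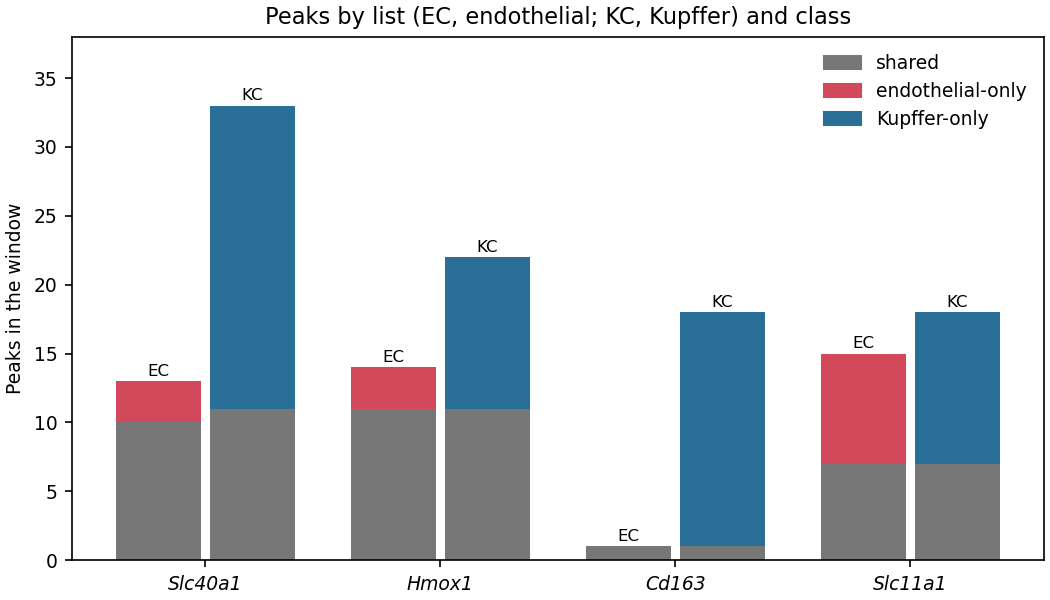
Number of peaks in each window by list (EC, endothelial; KC, Kupffer) and class, as stacked bars from 0. Kupffer-only peaks number 22 at Slc40a1, 11 at Hmox1, 17 at Cd163 and 11 at Slc11a1, and endothelial-only peaks 3, 3, 0 and 8.

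At Cd163, the hemoglobin receptor gene, open chromatin was called almost entirely in Kupffer cells. Of 18 Kupffer peaks 17 were Kupffer-only, and the window held no endothelial-only peak. The share of Kupffer peaks that were shared was 5.56% (95% exact Clopper-Pearson interval 0.141% to 27.3%), beside 39.1% of the whole Kupffer list, which lies outside that interval. The intervals of all other shares in the 4 windows held the share of their whole list. Intervals treat peaks as independent, which neighbouring peaks of a locus need not be, and cover counting error only. The genes and classes were also chosen with earlier results of these data known. The position of the list share outside the Cd163 interval is therefore a description and not a test.

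The single shared site of the Cd163 window, chr6:124223411-124223706, lay 3.56 kb from its start. A window narrower by 10 kb at each side leaves this site out and then holds no endothelial peak. Widened by 20 kb at each side, the window held 4 endothelial peaks, all shared, and 16.7% of its Kupffer peaks were shared. At the site the endothelial peak was 290 bp wide and the Kupffer peak 208 bp, with 202 bp in common. After it no endothelial peak was called until chr6:124325698-124325920, beyond the window. The interval between these endothelial peaks, chr6:124223707-124325697, measured 102 kb and held 18 Kupffer-only peaks, 16 of them in the window. Of the 91323 intervals between consecutive endothelial peaks on chromosomes 1 to 19 and X, 0.111% held as many, and the median interval held 0. These intervals are of all lengths, with a median gap of 6302 bp between endothelial peaks over the list, and longer ones have room for more peaks. Here and below the fullest interval of the window was taken. A high rank was therefore favoured by that choice and, at Cd163, by the length of the interval.

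Kupffer-only peaks of the Cd163 locus were spread over most of the window and gathered in its middle. The fullest stretch of 10 kb held 6 peaks, all Kupffer-only, within 6.6 kb (chr6:124265290-124271892). They included the widest restricted peak of the locus, chr6:124266078-124266362, at 285 bp. Such a stretch is common: 6.54% of stretches of 10 kb that begin at a Kupffer peak held at least 6. The run of 16 consecutive Kupffer-only peaks extended from chr6:124229376 to chr6:124309704, over 80.3 kb. The gaps between Kupffer peaks in the window had a median of 1972 bp and reached 19870 bp. From the 17 Kupffer-only peaks the median distance to the nearest endothelial peak was 33272 bp (1978 to 47929 bp). None lay within 1 kb of one. Over all Kupffer-only peaks the median was 4806 bp, and 22.5% lay within 1 kb. The long distances follow from the single endothelial peak of the window and add no separate contrast. In the gene table Cd163 lies between the vomeronasal receptor gene Vmn2r27 and Pex5, a gene of peroxisomal import, and whether either reaches into the window was not determined.

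To set the counts at Cd163 beside other stretches of this length, the genome was divided into consecutive tiles of the length of each locus, on chromosomes 1 to 19 and X, and tiles with at least 1 peak were kept. The tiles follow a fixed grid without regard to genes, whereas the windows were placed around genes. Tile percentages here and below therefore do not compare a window with other gene loci, and part of a low percentage may come from that placement. Of 19216 tiles of 90 kb, 2.14% held 17 or more Kupffer-only peaks, and the median was 3. Without peaks of 151 bp, the commonest width in both lists, 3.53% of tiles held as many as the locus, and with close peaks of a list joined 0.937% did. Both at least 17 Kupffer-only and no endothelial-only peak were found in 0.39%, or 18.2% of the 412 tiles with that many Kupffer-only peaks. At least 18 Kupffer peaks of any class were present in 9.62% of tiles. Among those 1849 tiles the median number of endothelial peaks was 12, and 0.919% held at most 1, as the Cd163 window did. The joint conditions were set from the counts of the Cd163 window itself and used for no other locus. A low percentage was therefore favoured by that choice. At least 1 endothelial peak was present in 88.7% of all tiles.

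**Figure D3:**
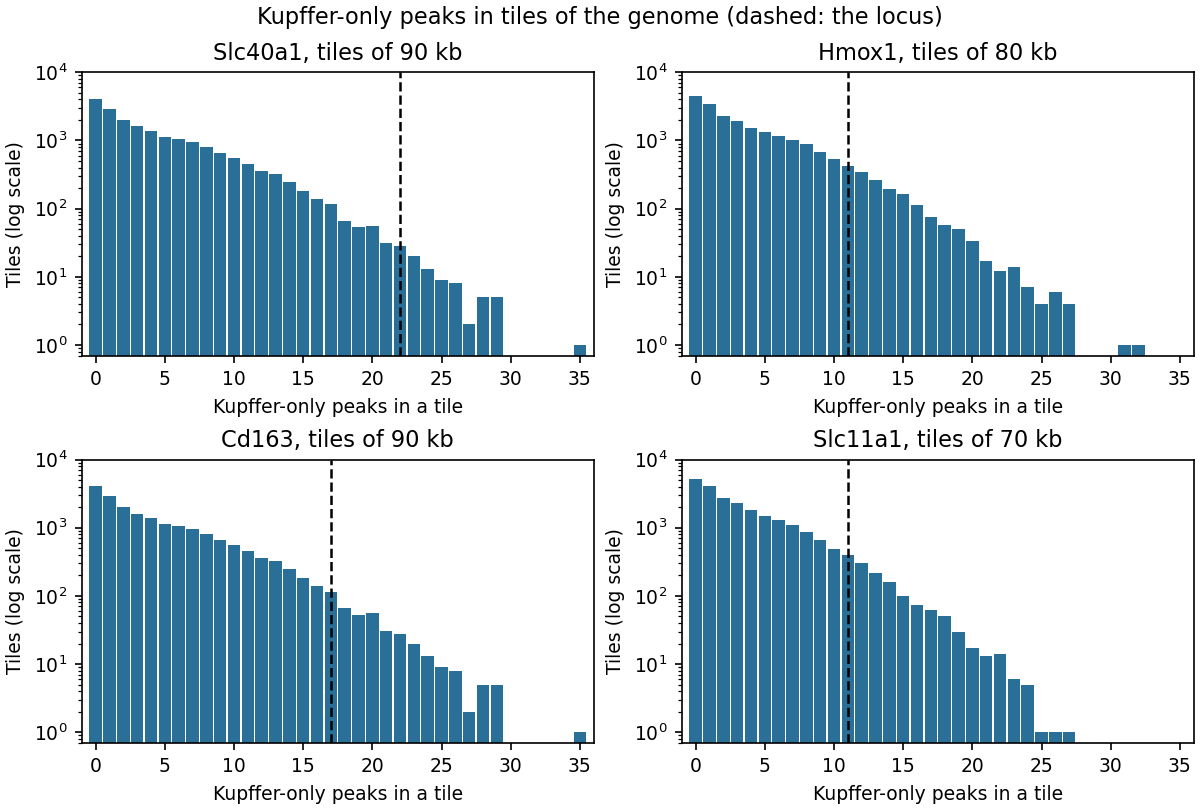
Number of tiles of the genome (logarithmic axis) by their count of Kupffer-only peaks, with tiles as long as each window; the dashed line marks the window of the gene. The Slc40a1 window, with 22 Kupffer-only peaks, lies farther into the tail (0.474% of tiles) than Cd163 with 17 (2.14%); without peaks of 151 bp the order is reversed, at 4.72% and 3.53%.

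At Hmox1, the heme-degrading enzyme, most endothelial peaks were shared, and as many Kupffer peaks were Kupffer-only as shared. The window held 25 sites, of which 11 were shared, 11 Kupffer-only and 3 endothelial-only. Of 14 endothelial peaks 11 were shared, or 78.6% (49.2% to 95.3%), beside 58.3% of the whole endothelial list. Of 22 Kupffer peaks 11 were shared, or 50% (28.2% to 71.8%), beside 39.1%. Both shares were above those of the lists, and both intervals include them. Of the bases covered by either list in the window, 34.5% were covered by both, the highest value of the 4 loci, against 25.1% at Slc11a1, 23.9% at Slc40a1 and 5.28% at Cd163. This percentage was not computed over the whole lists, so the order holds among the 4 windows only. At least 11 shared endothelial peaks were found in 2.43% of 21101 tiles of 80 kb.

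The 11 shared sites of the Hmox1 window ran from 7.53 to 53.4 kb after its start. The first 4 were spaced out, at chr8:77587345-77587709, chr8:77591316-77591523, chr8:77595576-77595834 and chr8:77602233-77602425. A close pair followed at chr8:77607812-77608040 and chr8:77608805-77609107, then single sites at chr8:77613514-77613793 and chr8:77617464-77617718. After a stretch with 4 Kupffer-only peaks came chr8:77626957-77627301, and the last were another close pair, chr8:77632551-77632773 and chr8:77633310-77633534. Both lists placed these sites nearly alike, with a median of 33 bp between the centres of the paired peaks (6 to 139 bp) and overlaps of 67 to 228 bp. The Kupffer peak was the wider of the pair at 6 sites, the endothelial peak at 4, and the widths were equal at 1. The greatest width of the locus, 365 bp, belonged to the Kupffer peak of the first site, where the endothelial peak measured 228 bp.

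Among the 11 Kupffer-only peaks of the Hmox1 window were runs of 4 in 2 places, chr8:77622287-77625990 and chr8:77640878-77656729. The others lay singly between shared sites. An interval between endothelial peaks with at least 4 Kupffer-only peaks is not unusual, at 6.84% of all intervals. The widest Kupffer-only peak, chr8:77643769-77643986, measured 218 bp. Of the 11, 1 lay within 1 kb of an endothelial peak, and the median distance was 1954 bp. The 3 endothelial-only peaks lay apart from each other, at chr8:77594332-77594482, chr8:77627625-77627829 and chr8:77658682-77658938, the last being the widest at 257 bp. Widened by 20 kb at each side, the window held 7 endothelial-only and 17 Kupffer-only peaks. Counts of at least 11 Kupffer-only peaks occurred in 8.46% of tiles (15% for the count without peaks of 151 bp, 5.41% with a distance of 500 bp or less enough for sharing and 4.7% with close peaks of a list joined), and of at least 3 endothelial-only peaks in 25.3%. In all, at least 22 Kupffer peaks occurred in 2.98% of tiles and at least 14 endothelial peaks in 4.83%, so that the window was densely covered in both lists. In the gene table Hmox1 lies between Tom1, an endosomal sorting gene, and Mcm5, a subunit of the replicative helicase.

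**Figure D4:**
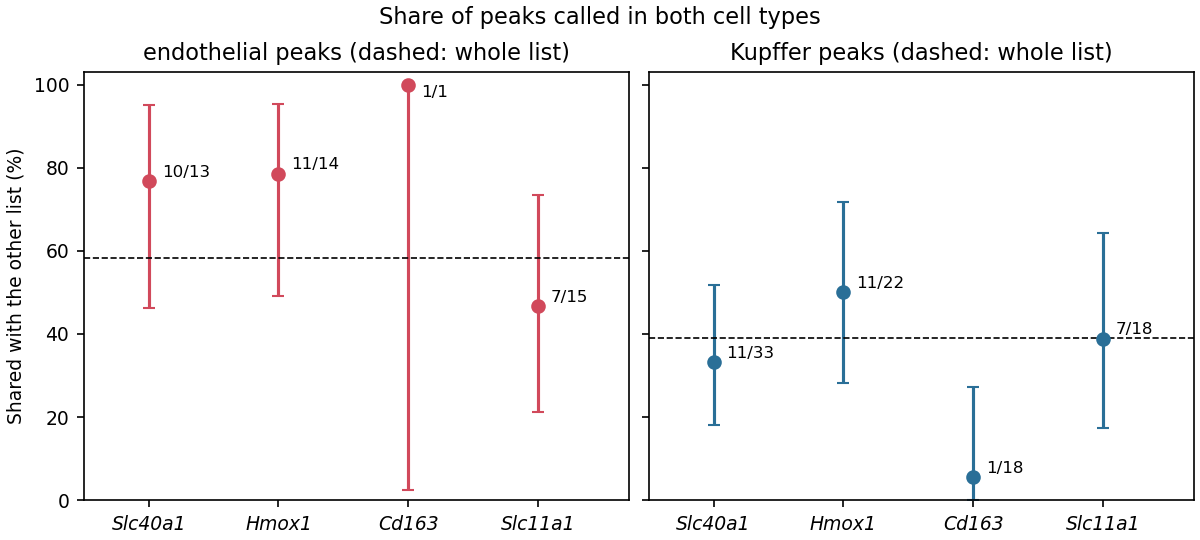
Percentage of endothelial (left) and Kupffer (right) peaks of each window that overlap a peak of the other list, with exact 95% binomial intervals and the counts beside each point; dashed lines give the whole lists, 58.3% and 39.1%. Only the Kupffer share of the Cd163 window, 1 of 18 peaks, has an interval that misses its line. The genes were chosen with earlier results of these data known, so this is a description and not a test.

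At Slc11a1, the phagosomal metal transporter, both cell types had restricted peaks. The window held 8 endothelial-only, 11 Kupffer-only and 7 shared sites. Of 15 endothelial peaks 46.7% were shared (21.3% to 73.4%), and of 18 Kupffer peaks 38.9% (17.3% to 64.3%), beside 58.3% and 39.1% of the lists. The other 3 windows together held 6 endothelial-only peaks. Without peaks of 151 bp, 3 endothelial-only peaks were left at Slc11a1, as many as at Slc40a1, and 16.5% of tiles of 70 kb held as many; the window narrowed by 10 kb at each side held 5. At least 8 endothelial-only peaks were found in 2.28% of 23362 tiles of 70 kb, and 11 or more Kupffer-only ones in 6.22%. At least 15 endothelial peaks of any class were found in 2.4% of tiles, and at least 18 Kupffer peaks in 4.78%.

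The first part of the Slc11a1 window held endothelial-only peaks and no Kupffer peak. A run of 4 endothelial-only peaks covered 9.2 kb, chr1:74391427-74400626, and included the widest restricted peak of all 4 loci, chr1:74399350-74399722, at 373 bp. The other 3 peaks of the run were 151 bp wide. The nearest Kupffer peaks lay 4265 to 10077 bp away from the peaks of this run. In the gene table Slc11a1 lies between Catip and Ctdsp1, with Tmbim1 before Catip and Vil1, which encodes an actin-bundling protein of brush borders, after Ctdsp1, and the genes to which these peaks belong were not determined.

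The 7 shared sites of the Slc11a1 window began 18.6 kb after its start. The first were chr1:74408499-74408796, chr1:74414884-74415232 and chr1:74421668-74421930. The site chr1:74433530-74433800 followed, then the close pair chr1:74438033-74438296 and chr1:74438848-74439035, and the last was chr1:74443936-74444264. At chr1:74438033-74438296 both lists gave the same interval of 264 bp to the base, 1 of 192 such intervals among 54534 overlapping pairs of the genome. The centres of the paired peaks were a median of 22.5 bp apart (0 to 58 bp). At least 7 shared endothelial peaks occurred in 8.38% of tiles.

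Kupffer-only peaks at Slc11a1 lay close to endothelial peaks. Of the 11, 8 lay within 1 kb of an endothelial peak, beside 22.5% of all Kupffer-only peaks, and their median distance was 342 bp (151 to 1538 bp). The corresponding numbers were 7 of 22 at Slc40a1, 1 of 11 at Hmox1 and 0 of 17 at Cd163. The Slc11a1 window was dense in endothelial peaks, with a count of 15 reached in 2.4% of tiles. Distances were not compared at equal density, so the closeness is not a contrast separate from that count. The Kupffer-only peak chr1:74409749-74409899 and the endothelial-only peak chr1:74410051-74410418, 368 bp wide, were separated by 151 bp. Of the 8 endothelial-only peaks this was the only one within 1 kb of a Kupffer peak, beside 25.9% of all endothelial-only peaks. The widest Kupffer-only peak, chr1:74439209-74439488 at 280 bp, lay 173 bp from the nearest endothelial peak. The longest run of Kupffer-only peaks was 3, over 4.73 kb (chr1:74415529-74420254), and 11.2% of intervals between endothelial peaks held as many. Around the last shared sites the Kupffer peaks were dense, with 7 in 6.94 kb (chr1:74438033-74444971), a number reached in 2.51% of stretches of 10 kb.

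The classes at Slc11a1 depended on the definition of sharing. When a distance of 500 bp or less was enough for sharing, 77.8% of Kupffer peaks were shared and 4 were Kupffer-only, fewer than the 7 endothelial-only peaks.

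**Figure D5:**
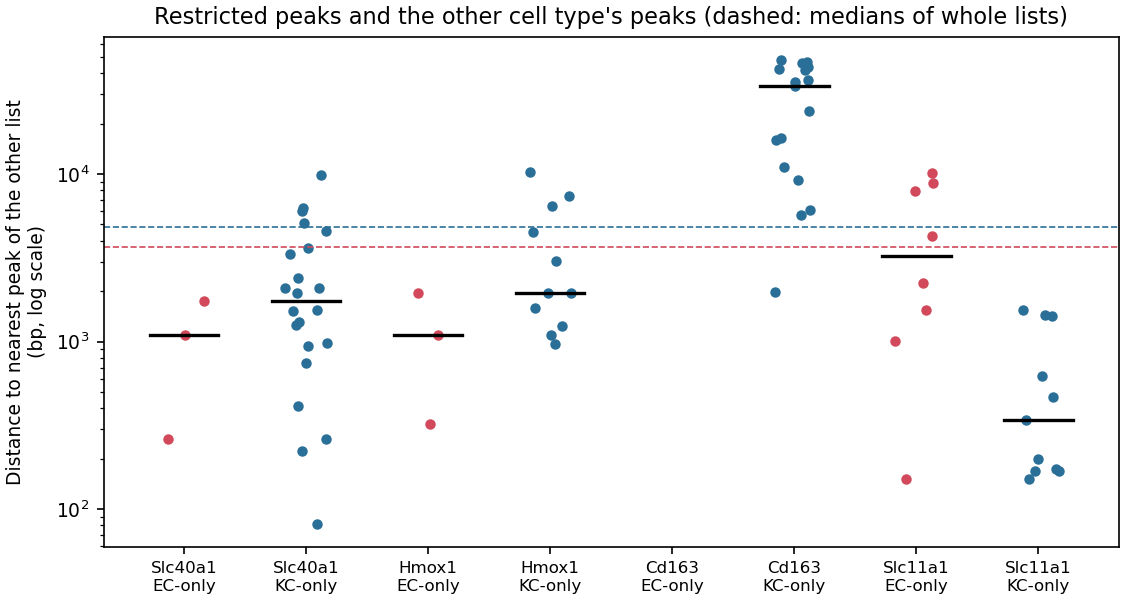
Distance from each restricted peak to the nearest peak of the other list (bp, logarithmic axis), by locus and class (EC-only, endothelial-only; KC-only, Kupffer-only); black bars are medians and dashed lines the medians of the whole lists, 3671 bp for endothelial-only (red) and 4806 bp for Kupffer-only peaks (blue). Kupffer-only peaks lie a median of 342 bp from endothelial peaks at Slc11a1 and 33272 bp at Cd163.

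At Slc40a1, the iron exporter, Kupffer peaks were the most numerous of the 4 loci, and most of them were Kupffer-only. Of 33 Kupffer peaks 22 were Kupffer-only and 11 shared, or 33.3% (18% to 51.8%), beside 39.1% of the list. Of 13 endothelial peaks 10 were shared, or 76.9% (46.2% to 95%), beside 58.3% of the list, and 3 were endothelial-only. Both intervals include the shares of the lists. Of the 19216 tiles of 90 kb, 0.474% held 22 or more Kupffer-only peaks and 0.229% held 33 or more Kupffer peaks of any class. The endothelial list was less extreme, with at least 13 peaks in 8.11% of tiles, at least 10 shared ones in 4.91% and at least 3 endothelial-only ones in 27.9%. Many of the Kupffer-only peaks were narrow, 9 of the 22 being 151 bp wide. Without peaks of that width 13 Kupffer-only peaks remained, and 4.72% of tiles held as many, more than the 3.53% of Cd163 under that setting.

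The 10 shared sites of the Slc40a1 window lay in pairs, with 2 exceptions. The pairs were chr1:45938251-45938632 and chr1:45939315-45939546, chr1:45961213-45961374 and chr1:45962040-45962394, chr1:45973215-45973426 and chr1:45974056-45974273, and chr1:45982391-45982661 and chr1:45982934-45983090. The pairs spanned 0.7 to 1.3 kb. The sites chr1:45977597-45977749 and chr1:45988098-45988300 stood alone. At the first site 1 endothelial peak of 227 bp overlapped 2 Kupffer peaks, by 41 and 163 bp. Elsewhere the lists placed the sites within 75.5 bp of each other, and over all 11 pairs of peaks the median distance between centres was 22 bp.

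Kupffer-only peaks of Slc40a1 filled the spaces between these shared pairs. A run of 7 lay between the second and the third pair, over 7.42 kb (chr1:45962465-45969884), and 2.07% of intervals between endothelial peaks held as many. From the third pair to the fourth, chr1:45973215-45983090, 11 Kupffer peaks lay within 9.88 kb, 5 shared and 6 Kupffer-only. That number was reached in 28 of 137542 stretches of 10 kb that begin at a Kupffer peak, or 0.0204%, and the same stretch held 5 endothelial peaks, all shared. The stretch is the fullest of its window, so a high rank was favoured by its choice. Several of its Kupffer peaks were 151 bp wide, and the percentage was not computed without peaks of that width. The gaps between Kupffer peaks in the window had a median of 934 bp, beside 3830 bp over the list, and those between endothelial peaks one of 2102 bp, beside 6302 bp.

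The part of the Slc40a1 window after these sites was sparse. Next to the fourth pair lay 2 endothelial-only peaks, chr1:45984178-45984420, the widest of its kind there at 243 bp, and chr1:45984832-45985020. After the shared site chr1:45988098-45988300 no Kupffer peak was called for 16488 bp. A small group of 2 Kupffer-only peaks and the third endothelial-only peak ended the window at chr1:46005979-46006129. The next peak of either list lay 55.4 kb beyond the window. The widest Kupffer-only peak, chr1:45951127-45951414 at 288 bp, stood alone in the earlier part, 9809 bp from the nearest endothelial peak. In the gene table Slc40a1 lies between Wdr75, a gene of ribosome production, and Dnah7b, which encodes an axonemal dynein chain.

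Peak widths differed between the 4 windows and between classes. Kupffer peaks had a median width of 167 bp at Slc40a1, 204 bp at Hmox1, 208 bp at Cd163 and 216 bp at Slc11a1, beside 199 bp over the list. Peaks of 151 bp made up 36.4% of the Kupffer peaks at Slc40a1 and 16.7% at Cd163, beside 26% of the list. In endothelial cells the median widths were 189 bp at Slc40a1, 206 bp at Hmox1 and 200 bp at Slc11a1, beside 198 bp, and the only endothelial peak at Cd163 measured 290 bp. Shared Kupffer peaks at Slc11a1 had a median of 260 bp, beside 207 bp over the list. At Slc11a1 the 8 endothelial-only peaks had a median of 151 bp and the 7 shared endothelial peaks one of 250 bp, beside 171 and 210 bp for these classes over the list. Over all 30 overlapping pairs in the windows the Kupffer peak was wider in 12, the endothelial peak in 13, and 5 were of equal width, with a median of 23.2 bp between centres, beside 25 bp over the genome. How the libraries were merged into the lists is not given, so widths carry that step too.

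The window edges cut through sparse and dense chromatin alike. Just outside, the nearest Kupffer peaks lay 0.606 kb before the Slc40a1 window and 0.189 kb before the Hmox1 window, both Kupffer-only, and 0.838 kb after the Cd163 window, also Kupffer-only. Just inside, the first Kupffer peak of the Slc40a1 window was centred 0.382 kb from its start and the last of the Cd163 window 89.6 kb from its start. Around the Slc11a1 window the nearest Kupffer peaks outside were shared, 2.91 kb before and 1.98 kb after it.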

How the data were processed

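Per the submitters' processing notes, Bowtie, HOMER and the build mm9 were used, without versions; no source used here gives the peak threshold, transposase offset, fragment selection or merging of libraries. The authors deposited 1 list of nucleosome-free peaks per cell type, with chromosome, start and end alone and no other values per peak or library. Positions are printed counted from 1. The lists held 91453 endothelial and 137684 Kupffer peaks. The windows were taken as given on mm9 and were not checked against an mm9 annotation, and peaks were assigned to no gene, exon or promoter. The other genes of iron and heme handling and the cell type markers listed for the case of an mm9 annotation were not analysed here. The 4 genes and all lists and classes were chosen with earlier results of these data known. Stretches of 10 kb, intervals between endothelial peaks and distances to the nearest peak of the other list were added after the data were seen. The joint tile conditions at Cd163 were not planned either and use the counts of its window.

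Python 3.11.15 with NumPy 2.4.6 gave the overlaps, tiles and distances. Exact 95% binomial intervals came from SciPy 1.17.1 and figures from matplotlib 3.10.9. The counting was tested on simulated data. With 1 list per cell type there are no replicates, and no p-value is given. Coordinates were printed for all shared sites, the widest restricted peak of each kind, the ends of the longest runs and, chosen after their values were seen, the endothelial-only peaks, the fullest stretches and peaks described by their position. Neighbouring genes were taken by order alone from a RefSeq table on GRCm38.p6, and promoters from a RefSeq table on the same build.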

Additional observations from a re-analysis of the deposited data

How the results depend on the processing

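Of 164 alternative values for 25 results, 140 stayed within 1.5 times a count or tile percentage or within the interval of a share, and 24 moved further. The 140 is a lenient count, because the intervals of shares were wide, at Cd163 2.5% to 100% for the endothelial share. The endothelial share at Slc11a1 went from 46.7% to 66.7% without peaks of 151 bp and still counted as unmoved. Assignment by any overlap left every count unchanged. Kupffer-only peaks outnumbered endothelial-only peaks in all 7 alternatives at Slc40a1, Hmox1 and Cd163 and in 5 of 7 at Slc11a1. When a distance of 500 bp or less was enough for sharing, Slc11a1 held 4 Kupffer-only peaks (33.8% of tiles held as many) and 77.8% of its Kupffer peaks were shared, and the tile percentages were 0.89% at Slc40a1, 5.41% at Hmox1 and 1.2% at Cd163. Without peaks of 151 bp, Slc40a1 held 13 Kupffer-only peaks (4.72% of tiles), the tile percentages were 15% at Hmox1, 3.53% at Cd163 and 11.7% at Slc11a1, and Slc11a1 held 3 endothelial-only peaks (16.5% of tiles). With peaks of a list within 500 bp joined, Slc11a1 held 5 Kupffer-only peaks (22.6% of tiles), and the percentages were 4.7% at Hmox1 and 0.937% at Cd163. These settings change the number of peaks or partners by construction. Windows widened by 20 kb at each side held 7 endothelial-only and 17 Kupffer-only peaks at Hmox1, 4 shared endothelial peaks at Cd163 and 11 at Slc11a1. Narrowed by 10 kb, the Cd163 window held 0 shared endothelial peaks and 0% of its Kupffer peaks were shared, and the Slc11a1 window held 5 endothelial-only peaks. An overlap of at least 50%, assignment by any overlap and shifted tiles moved no result further. No paired analysis was possible because each cell type has only 1 list of positions; leaving out replicates, other normalizations and count filters were not run either. Unknown depth limits each statement on an uncalled peak.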
